A study of Mus musculus with 8 samples.

Results

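Oxidative phosphorylation is run by protein complexes of the inner mitochondrial membrane. The RNA of their subunits is described here in sorted CD8SP TCRb+ MHC-I high thymocytes, the mature CD8 single-positive T cells of the thymus. Members were the protein-coding genes whose mouse symbol begins with Nduf followed by a, b, c, s or v, is Sdha, Sdhb, Sdhc or Sdhd, begins with Uqcr, begins with Cox4 to Cox8 followed by a, b or c, or begins with Atp5, together with the 13 protein genes of mitochondrial DNA. This gave 104 of the 47937 genes in the counts table, of which 96 had enough counts to be tested. Total RNA was sequenced from 4 biological replicates of Ndrg3ctrl (Ndrg3 +/fl;Lck-cre+) and 4 of Ndrg3TKO (Ndrg3 fl/fl;Lck-cre+), sorted from the thymus of mice 6 to 7 weeks old. Whether a replicate is 1 mouse is not given in the sources used here. Both groups carried the Lck-cre transgene, whose proximal Lck promoter is active from early T cell development in the thymus, so the controls could lose 1 of their Ndrg3 alleles in the same cells. The comparison asks whether the RNA of the respiratory chain and of ATP synthase differs between Ndrg3TKO and Ndrg3ctrl CD8SP thymocytes. It also asks whether subunits encoded in the nucleus and in mitochondria differ alike.

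Complex I (NADH dehydrogenase) and complex II (succinate dehydrogenase) feed electrons into coenzyme Q, complex III (the cytochrome bc1 complex) passes them to cytochrome c, and complex IV (cytochrome c oxidase) passes them to oxygen. Complexes I, III and IV pump protons across the inner membrane, and complex V (ATP synthase) uses the returning protons to make ATP. Complex II is built from nuclear genes alone, whereas each of the other complexes holds subunits from both genomes, so that cells make it with nuclear transcripts and with long polycistronic transcripts of mitochondrial DNA. Resting T cells draw much of their ATP from this pathway.

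By complex, the nuclear subunits numbered 36 in complex I, 4 in complex II, 8 in complex III, 18 in complex IV and 16 in complex V. Ndufa4 and Ndufa4l2 were counted with complex IV, since the Ndufa4 protein belongs to cytochrome c oxidase despite its name. A further 9 genes matched the symbol rule and are no subunits: the complex I assembly factors Ndufaf1 to Ndufaf8, and Atp5s. The 13 mitochondrial genes comprised 7 of complex I, 1 of complex III, 3 of complex IV and 2 of complex V. The rule took no gene such as Cox4i1 or Cyc1, whose symbols follow other patterns, and these are given with the rest of the pathway at the end.

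Library totals ranged from 21126698 to 32668081 counts, and 3 counts, the limit that a count of 0 allows, corresponded to 0.0918 to 0.142 CPM. CPM is the unit in which all library totals are made equal, and this limit covers counting error only. The targeted gene Ndrg3 had 2294 to 2359 normalized counts in Ndrg3ctrl and 1402 to 1601 in Ndrg3TKO, the direction the labels state (log2 fold change −0.64, adjusted p = 1.04e-05, edgeR's quasi-likelihood test). Ndrg3 RNA was thus lower in Ndrg3TKO and not absent. In the study, loxP sites flank an exon of the gene, and immunoblots of total thymocytes showed efficient depletion of the protein. Throughout, a normalized count is scaled to a library of average size, with TMM factors. The CD8SP label fitted its markers: summed over 11 genes such as Cd8a, Cd8b1, Cd3e and H2-K1, they reached 8258 to 9012 CPM in Ndrg3ctrl and 8101 to 8609 CPM in Ndrg3TKO, with none of the 11 past the threshold. Marker lists of CD4SP, double-positive, B, myeloid, NKT, gamma delta T, epithelial and erythroid cells summed to at most 38.0 CPM each, and erythroid genes were at 0. Of the listed genes, 1 passed the threshold, Klrb1c of the NKT list, with 3.18 to 18.5 normalized counts in Ndrg3ctrl and 42.7 to 59.0 in Ndrg3TKO. Zbtb16, the other gene of that list, lay the other way, at 4.23 to 9.70 in Ndrg3ctrl and 0.909 to 2.67 in Ndrg3TKO, with too few counts to be tested. Y-linked genes were expressed in Ndrg3ctrl replicate 2 and in Ndrg3TKO replicates 2 and 3 only, at 340.5 to 416 CPM, and summed to at most 0.0752 CPM in the other libraries. Values are therefore also given within the libraries alike in Y-linked counts. The sample numbers in the table header form 3 runs, of which the first holds replicate 1 of both groups, the second replicates 2 and 3, and the third replicate 4. What the runs mark is not given in the sources used here, and values are given within them where a result turns on it. In bulk samples, a lower share of a gene's RNA in each cell and fewer cells that hold it cannot be told apart.

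In the comparison of Ndrg3TKO with Ndrg3ctrl without covariates, no oxidative phosphorylation gene passed an adjusted p of 0.05. In the edgeR fit over 14633 tested genes, 168 passed that threshold, or 1.15%, against 0 of the 96 tested members. At an unadjusted p of 0.05, 7 members passed, all with lower values in Ndrg3TKO: Ndufb6 and Ndufb9 of complex I, Cox5b and Cox7a2 of complex IV, and the mitochondrial genes mt-Nd1, mt-Nd4 and mt-Nd5. Over all tested genes, 10.9% passed that unadjusted level in either direction and 5.51% in the lower direction. DESeq2 called 1 member, mt-Nd5, and by that tool too 7 members had an unadjusted p under 0.05, with mt-Co1 in place of Cox7a2; DESeq2 called 2.02% of all genes it tested. With the run of sample numbers as a term in the edgeR fit, an alternative added after seeing the data, 2 members passed the adjusted threshold, mt-Nd5 and mt-Nd4, both lower, beside 1.59% of all tested genes. In none of the 96 did the 4 libraries of a group lie apart from the 4 of the other, which 7.04% of all tested genes did.

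The fitted differences were small and mostly below 0. Of the 96 tested members, 75 had a negative and 21 a positive log2 fold change, against 7493 and 7140 of all tested genes. The median was −0.037 over the 76 tested nuclear subunits and −0.19 over the 11 tested mitochondrial genes, beside −0.0033 over all tested genes. For 59 of the 76 nuclear subunits the fitted change was under 0.1 on the log2 scale in size. The 95% interval, taken as the estimate plus and minus the standard error times the t quantile for 6 residual degrees of freedom, stayed within 0.5 of 0 for 73 of them, so differences larger than that were outside the interval for all but 3.

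**Figure D1:**
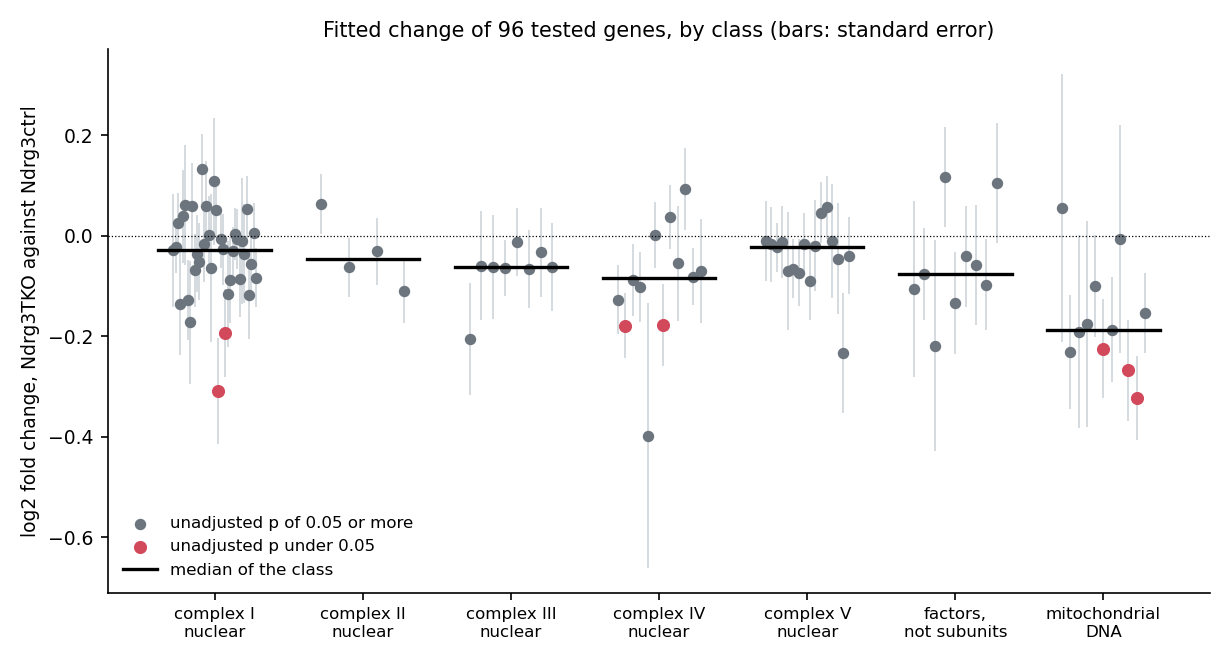
Fitted log2 fold change of each of the 96 tested members (points, with the standard error as bars) by class, with the class median as a black line. The medians lie between −0.085 and −0.021 in the nuclear complexes and at −0.19 in mitochondrial DNA, and the 7 members with an unadjusted p under 0.05, in red, all lie below 0.

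A single control library held the highest values of most subunits. Ndrg3ctrl replicate 2 was the highest of the 8 libraries for 50 of the 76 tested nuclear subunits (65.8%) and for 7 of the 11 tested mitochondrial genes, against 20.9% of all tested genes. Ndrg3TKO replicate 1 was the lowest for 33 of the nuclear subunits (43.4%, against 15.5% of all tested genes), and Ndrg3TKO replicate 4 was the lowest for 8 of the 11 mitochondrial genes. Ndrg3ctrl replicate 2 was also the shallowest library (21126698 counts), 1 of the 3 with Y-linked counts, and the lowest in the mitochondrial ribosomal RNAs (129 CPM, against 238 to 696 CPM in the others), which the library kit depletes; the part of these in its values was not tested. Without this library the median log2 fold change of the nuclear subunits was 0.0022 in place of −0.037, and that of the mitochondrial genes was −0.093 in place of −0.19. Of the 31 tested members followed one by one, 21 moved by over 1.5 times without it, the most of the 8 libraries.

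All 36 nuclear subunits of complex I were tested, and none passed the adjusted threshold. Their median log2 fold change was −0.028, with 24 values below 0 and 12 above. The values ran from −0.31 in Ndufb6 to 0.13 in Ndufab1, the mitochondrial acyl carrier protein.

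Ndufb6, an accessory subunit of the membrane arm (chromosome 4, 40270591 to 40279421), had the smallest p of complex I. Its normalized counts were 498, 610.1, 544 and 421 in Ndrg3ctrl replicates 1 to 4 and 387, 454, 399 and 429 in Ndrg3TKO replicates 1 to 4. Ndrg3ctrl replicates 1 to 3 lay above every Ndrg3TKO library, while Ndrg3ctrl replicate 4 lay among them. The means were 518 ± 79.4 (SD, n = 4) in Ndrg3ctrl and 417 ± 30.5 (SD, n = 4) in Ndrg3TKO, a log2 fold change of −0.31 ± 0.106 (standard error, unadjusted p = 0.0114, adjusted p = 0.264, edgeR). In the libraries without Y-linked counts the difference of the log2 means was −0.25 (3 Ndrg3ctrl and 2 Ndrg3TKO libraries), and in those with them −0.52 (1 and 2 libraries, no test). Within the 3 runs of sample numbers the differences were −0.36, −0.44 and 0.027 (no test). Of the 50-base words of Ndufb6, 31.6% also occur in transcripts of other genes, chiefly the overlapping gene Smim27.

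Ndufb9, another accessory subunit, had 735, 846, 664 and 670.02 in Ndrg3ctrl replicates 1 to 4 and 599, 703, 598 and 642 in Ndrg3TKO replicates 1 to 4. In all, 3 of its Ndrg3TKO values lay below every control and 1 within the control range. The fit gave a log2 fold change of −0.19 ± 0.0880 (standard error, unadjusted p = 0.0450, adjusted p = 0.446, edgeR). Within the runs the differences of the log2 means were −0.30, −0.21 and −0.061. Ndufb11, also of the membrane arm, had the highest level per kb of complex I (1329.9 normalized counts per kb of exon) and a fitted value of 0.059 ± 0.0908 on the log2 scale (adjusted p = 0.865).

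The 4 subunits of complex II, which is also an enzyme of the tricarboxylic acid cycle, had log2 fold changes between −0.11 and 0.063 with a median of −0.047, and none passed the threshold. Sdha, the flavoprotein that oxidises succinate, had the highest level per kb of the 4 (1248). Its normalized counts were 5199, 5392, 4944 and 4618 in Ndrg3ctrl replicates 1 to 4 and 5214, 5622, 5309.7 and 4909 in Ndrg3TKO replicates 1 to 4, and the groups overlapped (log2 fold change 0.063 ± 0.0591, adjusted p = 0.748). Sdhd, a membrane anchor, had the smallest p, with 1506, 1554, 1336 and 1372 in Ndrg3ctrl replicates 1 to 4 and 1278, 1436, 1314 and 1315 in Ndrg3TKO replicates 1 to 4. The lowest control of Sdhd lay above 3 Ndrg3TKO libraries and below replicate 2, and the fit gave a log2 fold change of −0.11 ± 0.0635 (standard error, unadjusted p = 0.106, adjusted p = 0.571, edgeR).

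In complex III all 8 nuclear subunits had values below 0, from −0.20 to −0.013 with a median of −0.062, and none passed the threshold. The core proteins Uqcrc1 and Uqcrc2 and the Rieske iron-sulfur protein Uqcrfs1 lay between −0.066 and −0.013. Uqcr10, a small subunit, had both the highest level per kb (1525) and the smallest p. Its normalized counts were 818, 1189, 929.8 and 884 in Ndrg3ctrl replicates 1 to 4 and 703, 916, 839 and 846 in Ndrg3TKO replicates 1 to 4, with Ndrg3ctrl replicate 2 well above the rest and the other 7 libraries intermixed. The fit gave a log2 fold change of −0.20 ± 0.111 (standard error, unadjusted p = 0.0893, adjusted p = 0.550, edgeR). Without Ndrg3ctrl replicate 2 this value was −0.088.

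Complex IV is the complex in which tissues use different copies of the same subunit, and the copies found here were mainly those known from most tissues. Of its 18 nuclear members, 12 were tested and 6 were at or near 0. Cox8a, Cox7a2l, Cox6b1, Cox6a1 and Cox7a2 had 4625, 4135, 2879.7, 2387 and 1699 normalized counts per kb over the 8 libraries. Cox8b, the muscle form of Cox8a, and the testis forms Cox7b2 and Cox8c had 0 counts in every library. Cox6a2, the muscle form of Cox6a1, had 3 counts in all libraries together, and Ndufa4l2, a relative of Ndufa4 known to be induced by hypoxia, had 1. The testis form Cox6b2 was detected in every library, at levels per kb that were 87.6 to 171 times below those of Cox6b1, and had a log2 fold change of −0.40 ± 0.263 (adjusted p = 0.632).

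Cox7a1, the muscle form of Cox7a2, was the single member whose normalized counts did not overlap between the groups, and it had too few counts to be tested in the main fit. It had 15, 9, 8 and 13 counts in Ndrg3ctrl and 7, 8, 8 and 1 in Ndrg3TKO replicates 1 to 4. Scaled for depth these were 14.6, 12.8, 7.84 and 13.8 in Ndrg3ctrl replicates 1 to 4 and 6.71, 7.27, 7.73 and 0.889 in Ndrg3TKO replicates 1 to 4. The highest Ndrg3TKO and lowest Ndrg3ctrl values thus differed by less than 1 count. With no filter on low counts its log2 fold change was −1.10 (unadjusted p = 0.0243, adjusted p = 0.478, edgeR).

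Among the tested genes of complex IV, the median log2 fold change was −0.085, with 9 values below 0 and 3 above. Cox5b, a matrix-side subunit (chromosome 1, 36691449 to 36693681), had the smallest p of the complex, with 1543, 1706, 1571 and 1724 in Ndrg3ctrl replicates 1 to 4 and 1303, 1550.2, 1410.3 and 1514 in Ndrg3TKO replicates 1 to 4. All but replicate 2 of the Ndrg3TKO libraries lay below the lowest control. The means were 1636 ± 92.6 (SD, n = 4) in Ndrg3ctrl and 1444 ± 112 (SD, n = 4) in Ndrg3TKO, a log2 fold change of −0.18 ± 0.0650 (standard error, unadjusted p = 0.0156, adjusted p = 0.295, edgeR). The difference of the log2 means was −0.20 in the libraries without and −0.21 in those with Y-linked counts. Within the runs it was −0.24, −0.15 and −0.19. Cox7a2 had 1597, 1961, 1697 and 1560.2 in Ndrg3ctrl replicates 1 to 4 and 1306, 1645, 1498 and 1567 in Ndrg3TKO replicates 1 to 4, so 2 Ndrg3TKO libraries lay within the control range, and a log2 fold change of −0.18 ± 0.0819 (standard error, unadjusted p = 0.0482, adjusted p = 0.456, edgeR). Within the runs the differences of the log2 means of Cox7a2 were −0.29, −0.22 and 0.0059. Cox7a2l lay 2.12 to 2.83 times above Cox7a2 per kb in each library, and its fitted value was 0.037 ± 0.0637 (adjusted p = 0.882). The values of Cox8a, Cox6a1, Cox6b1 and Ndufa4 were −0.081 ± 0.0573, −0.088 ± 0.0712, −0.10 ± 0.0697 and −0.070 ± 0.103, with adjusted p of 0.652, 0.704, 0.640 and 0.859.

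Complex V held the nuclear transcript with the highest level per kb, and its median log2 fold change was −0.021, with 14 of 16 values below 0; none passed the threshold. The 5 subunits of its catalytic F1 head, Atp5a1, Atp5b, Atp5c1, Atp5d and Atp5e, had a median log2 fold change of −0.017, and the 11 others −0.039. Atp5a1, the alpha subunit, had the highest level per kb of all nuclear members (4785). Its normalized counts were 15794, 17342, 13309.6 and 13789 in Ndrg3ctrl replicates 1 to 4 and 14510.3, 16340.1, 14693 and 14239 in Ndrg3TKO replicates 1 to 4, and the groups overlapped throughout (log2 fold change −0.011 ± 0.0799, adjusted p = 0.978). Atp5b, the beta subunit, lay at 0.857 to 0.950 of the Atp5a1 level per kb in each library. Atp5mpl, a small membrane subunit, had the smallest p of the complex, with 634, 766, 567 and 493 in Ndrg3ctrl replicates 1 to 4 and 476, 582, 484 and 543 in Ndrg3TKO replicates 1 to 4. Its groups overlapped, with 2 Ndrg3TKO libraries below the lowest control, and the fit gave a log2 fold change of −0.23 ± 0.119 (standard error, unadjusted p = 0.0722, adjusted p = 0.516, edgeR). Without Ndrg3ctrl replicate 2 it was −0.12.

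The membrane ring of ATP synthase is made of subunit c, which Atp5g1, Atp5g2 and Atp5g3 encode as the same mature protein. Atp5g3 made up 51.9% ± 0.899 (SD, n = 4) of their summed level per kb in Ndrg3ctrl and 50.9% ± 1.35 (SD, n = 4) in Ndrg3TKO. Atp5g2 made up 34.9% ± 1.06 and 36.0% ± 0.777, and Atp5g1 13.2% ± 0.939 and 13.1% ± 0.589 (SD, n = 4 each). Per kb, the order Atp5g3, Atp5g2, Atp5g1 held in both groups, with gaps above the spread between replicates. The order of the last pair rests on exon length (4912 bases in Atp5g1 and 1675 in Atp5g2), since Atp5g1 had more normalized counts (1874 and 1779.6 on average in Ndrg3ctrl and Ndrg3TKO) than Atp5g2 (1693 and 1673). The log2 fold changes were −0.073 ± 0.0662, −0.015 ± 0.0614 and −0.091 ± 0.0775 for Atp5g1, Atp5g2 and Atp5g3. Atp5g2 shares 38.3% of its 50-base words with other genes.

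The 9 factors that are no subunits lay lower, between 14.0 (Ndufaf2) and 246 (Ndufaf1) normalized counts per kb, against a median of 533 for the subunits of complex I, which the 8 Ndufaf genes help to assemble. Their median log2 fold change was −0.076, with 7 values below 0 and 2 above, and none passed the threshold. Ndufaf4, an assembly factor of complex I, had the smallest p of them (log2 fold change −0.13 ± 0.101, unadjusted p = 0.207, adjusted p = 0.679), and Ndufaf1, which acts early in that assembly, had −0.076 ± 0.0916 (adjusted p = 0.817).

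**Figure D2:**
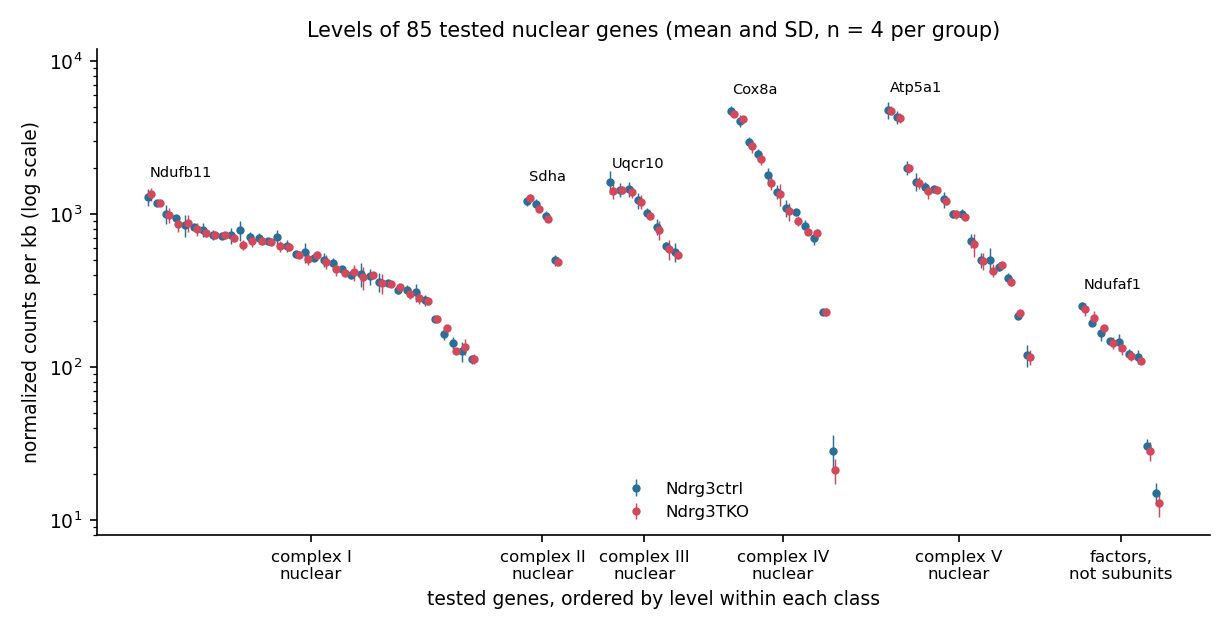
Normalized counts per kb of exon (log scale) of the 85 tested nuclear members, ordered by level within each class, as mean and SD of the 4 Ndrg3ctrl (blue) and 4 Ndrg3TKO (red) libraries. The leading gene of each class is named; levels run from 14.0 in Ndufaf2 to 4785 in Atp5a1, and the means of the 2 groups lie close together along the whole range.

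Nuclear genes of oxidative phosphorylation share few promoter features, the best known being sites for the factor NRF-1, for ETS factors such as GABP (NRF-2) and for YY1. Promoters from RefSeq (GRCm38.p6), from 250 bases before to 50 after the start, were at hand for 74 of the 91 nuclear members and were searched on both strands. The NRF-1 type, spelled GCGC, any base, then TGCGC, stood in 19 of the 74 (25.7%, against 5.19% of 27025 genes with a promoter). CCGGAAG, of the ETS type, stood in 18 (24.3%, against 9.93%), and AAGATGGCG, of the YY1 type, in 8 (10.8%, against 1.64%). TATAAA stood in 7 (9.46%, against 15.7%). The NRF-1 letters were found in 7 of 32 promoters of complex I, 2 of 3 of complex II and 1 of 5 of complex III. They were found in 1 of 14 of complex IV, 6 of 13 of complex V and 2 of 7 of the factors. A gene with several starts was counted if any of them held the letters. The 27025 genes were not limited to protein-coding genes, unlike the members. These are matches of letters and no measured binding.

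The 250 bases before the start are shown for the nuclear members with the smallest p, Ndufb6 (chr4:40279422-40279671, minus strand) and Cox5b (chr1:36691237-36691486, plus strand), and for Atp5h (chr11:115419920-115420169, minus strand), the first by symbol of 4 genes that hold both the NRF-1 and the ETS letters. Capitals mark the searched letters, which read CTTCCGG and GCGCAGGCGC where they lie on the other strand. Ndufb6 holds an ETS match, Atp5h an NRF-1 and an ETS match, and Cox5b none of the searched letters in this stretch.
Ndufb6: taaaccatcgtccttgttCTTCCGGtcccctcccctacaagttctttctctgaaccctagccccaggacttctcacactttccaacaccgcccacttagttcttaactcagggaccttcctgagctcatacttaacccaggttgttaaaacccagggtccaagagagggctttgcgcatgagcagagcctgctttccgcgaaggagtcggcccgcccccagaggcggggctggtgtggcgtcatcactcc
Cox5b: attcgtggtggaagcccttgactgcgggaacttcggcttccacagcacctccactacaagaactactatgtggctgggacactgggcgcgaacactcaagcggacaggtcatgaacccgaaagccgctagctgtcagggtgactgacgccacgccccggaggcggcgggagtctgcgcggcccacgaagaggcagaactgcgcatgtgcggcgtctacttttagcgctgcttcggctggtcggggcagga
Atp5h: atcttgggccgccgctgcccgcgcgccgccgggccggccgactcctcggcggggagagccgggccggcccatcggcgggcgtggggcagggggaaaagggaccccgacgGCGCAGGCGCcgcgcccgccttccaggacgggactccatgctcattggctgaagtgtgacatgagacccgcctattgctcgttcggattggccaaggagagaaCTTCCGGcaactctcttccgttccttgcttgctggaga

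The 13 mitochondrial genes made up 0.547% to 0.803% of each library's counts, more than the 82 nuclear subunit genes together (0.461% to 0.532%). mt-Co1, which encodes the catalytic subunit of cytochrome c oxidase, alone held 68.5% to 72.9% of the mitochondrial protein counts. Of the 11 genes that were tested, 10 had log2 fold changes below 0 and mt-Atp6 had 0.056; none passed the adjusted threshold. In libraries without Y-linked counts, the median difference of the log2 means was −0.11 over these 11 genes and −0.041 over the 76 nuclear subunits (3 Ndrg3ctrl and 2 Ndrg3TKO libraries). In libraries with Y-linked counts the medians were −0.38 and −0.17 (1 and 2 libraries, the control being replicate 2, no test).

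The mitochondrial genes of complex I encode the proton-pumping membrane subunits. mt-Nd5 had the smallest p of all members, with 8615, 10995, 11479 and 9363 in Ndrg3ctrl replicates 1 to 4 and 7947, 8071, 8744 and 7581 in Ndrg3TKO replicates 1 to 4. Ndrg3TKO replicates 1, 2 and 4 lay below the lowest control, and replicate 3 lay between Ndrg3ctrl replicates 1 and 4. The means were 10113 ± 1348 (SD, n = 4) in Ndrg3ctrl and 8086 ± 486 (SD, n = 4) in Ndrg3TKO, a log2 fold change of −0.32 ± 0.0835 (standard error, unadjusted p = 0.00194, adjusted p = 0.108, edgeR). Its 95% interval ran from −0.53 to −0.12. By DESeq2 its adjusted p was 0.0191, and without Ndrg3ctrl replicate 1 it was 0.0289 by edgeR. Over all 18 alternative settings it ran from 0.000627 to 0.286, the highest being that of the 5 libraries without Y-linked counts, and it was 0.0164 with the run of sample numbers as a term. The 18 settings include a term for the replicate number, though these numbers were not taken as pairs. Within the 3 runs the differences of the log2 means were −0.12, −0.42 and −0.30. The differences of the log2 means within the libraries without and with Y-linked counts were −0.33 and −0.39.

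mt-Nd4 had 4429, 5464, 5899.9 and 4284 in Ndrg3ctrl replicates 1 to 4 and 4022, 4339.9, 4529.7 and 3783 in Ndrg3TKO replicates 1 to 4. Its lowest control lay above 2 Ndrg3TKO libraries, so the groups overlapped, and the fit gave a log2 fold change of −0.27 ± 0.1004 (standard error, unadjusted p = 0.0216, adjusted p = 0.345, edgeR). With the run of sample numbers as a term its adjusted p was 0.0311. Over all alternative settings it ran from 0.00156, with the replicate number as a term, to 0.626. The differences within the runs were −0.14, −0.36 and −0.18. mt-Nd1 had 12456, 16048, 14622 and 12211 in Ndrg3ctrl replicates 1 to 4 and 12847, 12196, 12428 and 9897 in Ndrg3TKO replicates 1 to 4, again with overlap, and a log2 fold change of −0.22 ± 0.0989 (standard error, unadjusted p = 0.0426, adjusted p = 0.443, edgeR). For mt-Nd1 the differences within the runs were 0.045, −0.32 and −0.30. mt-Nd2 and mt-Nd6, the latter transcribed from the opposite strand to the others, had values of −0.19 ± 0.105 (adjusted p = 0.566) and −0.15 ± 0.0796 (adjusted p = 0.519). The first was −0.078 without Ndrg3ctrl replicate 3, and the second −0.093 without Ndrg3ctrl replicate 2. mt-Nd3 had 42.3 to 85.3 normalized counts and a value of −0.0062 ± 0.227 (adjusted p = 0.996), and mt-Nd4l had 1 to 10 counts per library and was not tested.

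Complex III takes cytochrome b from mitochondrial DNA, and complex IV takes its 3 core subunits. mt-Cytb, the cytochrome b gene, had 29047, 33632, 29823 and 23728 in Ndrg3ctrl replicates 1 to 4 and 28107, 28140.3, 29125 and 23045 in Ndrg3TKO replicates 1 to 4. The replicate 4 library was the lowest in both groups, and the log2 fold change was −0.10 ± 0.101 (adjusted p = 0.774). It was −0.025 without Ndrg3ctrl replicate 2, −0.030 without Ndrg3TKO replicate 4 and −0.19 without Ndrg3ctrl replicate 4. mt-Co1 had 159510.4, 169434, 152265 and 117348 in Ndrg3ctrl replicates 1 to 4 and 130095, 137111, 136311 and 106568 in Ndrg3TKO replicates 1 to 4. Replicate 4 was again the lowest in both groups, with overlap between the groups, and the fit gave a log2 fold change of −0.23 ± 0.114 (standard error, unadjusted p = 0.0621, adjusted p = 0.490, edgeR). mt-Co2 and mt-Co3, the other subunits of the complex from mitochondrial DNA, had only 82.7 to 156 and 113 to 249 normalized counts, with values of −0.19 ± 0.192 (adjusted p = 0.774) and −0.18 ± 0.205 (adjusted p = 0.813). In complex V, mt-Atp6 had 21.3 to 48.0 normalized counts (log2 fold change 0.056 ± 0.266, adjusted p = 0.963) and mt-Atp8 0 to 3 counts.

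**Figure D3:**
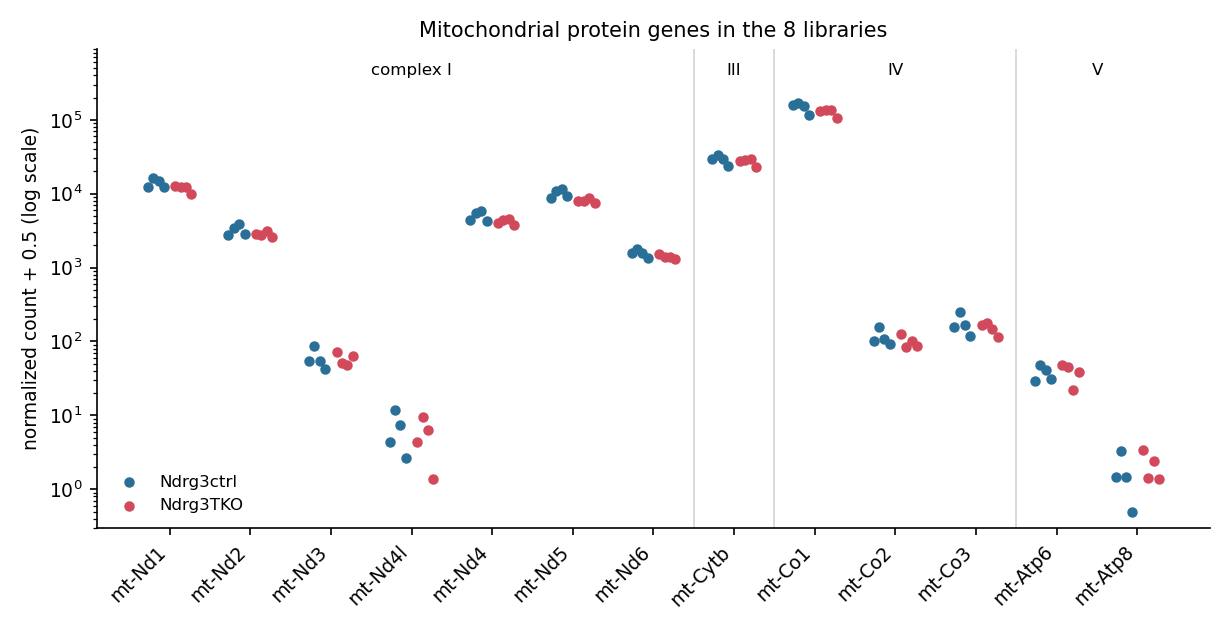
Normalized counts (plus 0.5, log scale) of the 13 mitochondrial protein genes in the 4 Ndrg3ctrl (blue) and 4 Ndrg3TKO (red) libraries, in the order of replicates 1 to 4 within each group and grouped by complex. The groups overlap in every gene, and mt-Nd3, mt-Nd4l, mt-Co2, mt-Co3, mt-Atp6 and mt-Atp8 lie far below the other 7.

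The counts of the mitochondrial genes were very unequal, and the low ones were mostly those with near-identical nuclear copies. Parts of mitochondrial DNA have been copied into nuclear chromosomes, and reads from such stretches match both places of the genome. Every 50-base word of each member was looked up in the transcripts of all other annotated genes. The 5 genes mt-Co2, mt-Co3, mt-Atp6, mt-Nd4l and mt-Nd3 shared 98.0% to 100% of their words with other genes and had 18.5 to 207 normalized counts per kb. The 7 genes mt-Co1, mt-Cytb, mt-Nd1, mt-Nd2, mt-Nd4, mt-Nd5 and mt-Nd6 shared 0% to 62.2% and had 2855 to 89696. In mt-Nd4 and mt-Co1, which shared 62.2% and 51.1%, the counts per 1000 unshared words were 9151 and 189576. The exception was mt-Atp8, which shared no word with an annotated gene and had 0 to 3 counts; its neighbours mt-Co2 and mt-Atp6 have copies on chromosome 1 that leave a gap of 233 bases with no annotated gene, where 230 bases separate them in mitochondrial DNA. How the counting treated reads with several matches is not given in the sources used here, and its part in these counts was not tested.

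**Figure D4:**
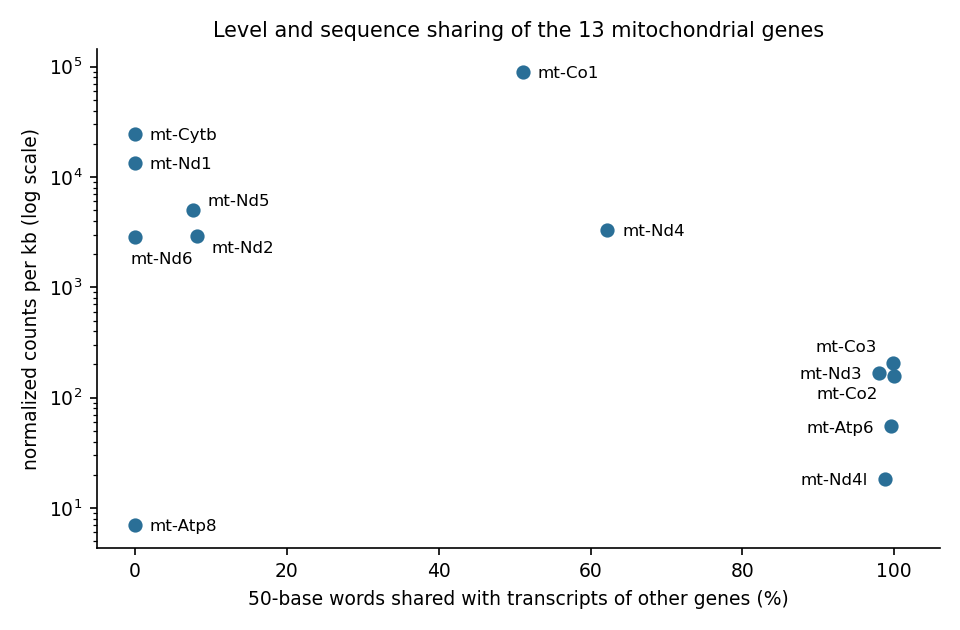
Level of each mitochondrial protein gene (normalized counts per kb, mean of 8 libraries, log scale) against the percentage of its 50-base words found in transcripts of other genes. The 5 genes at 98.0% or more lie at 18.5 to 207, the 7 others from 0% to 62.2% at 2855 or more, and mt-Atp8 at 6.99.

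The first 60 bases of mt-Co3 (chrM:8607-8666, plus strand, GRCm38) and of its chromosome 1 copy Gm28437 (chr1:24613912-24613971, minus strand) are the same: over 783 aligned bases, 0 differ. A stretch of mt-Co1 (chrM:5787-5846, plus strand) beside its chromosome 2 copy Gm13340 (chr2:22589129-22589188, minus strand) was picked for holding the most differences. Over the whole of that alignment, 37 of 1545 bases differ. The chromosome 1 copy of mt-Co1, Gm29216, differs at 6 of 492 aligned bases. Capitals mark bases that differ, A3G, A9G, T42C and C60T from mt-Co1 to Gm13340, counted from 1 at the left end.
mt-Co3: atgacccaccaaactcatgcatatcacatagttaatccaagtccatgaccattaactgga
Gm28437: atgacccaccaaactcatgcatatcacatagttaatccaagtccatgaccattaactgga
mt-Co1: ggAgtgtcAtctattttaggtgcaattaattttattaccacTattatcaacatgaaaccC
Gm13340: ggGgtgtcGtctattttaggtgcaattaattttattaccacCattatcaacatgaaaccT
The copies on chromosomes 1 and 2 were counted as genes of their own, with 193 to 254 counts per library for Gm28437 beside 113 to 195 for mt-Co3, and 153 to 237 for Gm13340 beside 110864 to 164371 for mt-Co1.

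The 7 genes with the larger counts had a median log2 fold change of −0.22 and lay between −0.32 and −0.10. The 4 tested genes that are nearly wholly shared had a median of −0.091, with standard errors of 0.192 to 0.266, against 0.0796 to 0.114 in the 7. For these 4 the low counts do not allow a statement on a direction.

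Set side by side, the mitochondrial sums were lower on average in Ndrg3TKO and the nuclear sums nearly alike. The 13 mitochondrial genes summed to 7502, 8033, 7649 and 6088 in Ndrg3ctrl replicates 1 to 4 and 6502, 6549, 6825 and 5466 in Ndrg3TKO replicates 1 to 4, in CPM. The highest 3 values were controls, and the groups overlapped, since Ndrg3ctrl replicate 4 lay below 3 Ndrg3TKO libraries. The means were 7318 ± 850.03 and 6336 ± 597 CPM (SD, n = 4 each), a ratio of 0.866. The 82 nuclear subunit genes summed to 4925, 5319.8, 4802 and 4785 in Ndrg3ctrl replicates 1 to 4 and 4606, 5112, 4839 and 4915 in Ndrg3TKO replicates 1 to 4, in CPM. Their means of 4958 ± 249 and 4868 ± 209 CPM (SD, n = 4 each) differed by less than the SD of either group. The ratio of the mitochondrial to the nuclear sum was 1.52, 1.51, 1.59 and 1.27 in Ndrg3ctrl replicates 1 to 4 and 1.41, 1.28, 1.41 and 1.11 in Ndrg3TKO replicates 1 to 4. It averaged 1.47 ± 0.140 and 1.30 ± 0.142 (SD, n = 4 each), with 3 of the 4 Ndrg3ctrl libraries above and replicate 4 below the highest Ndrg3TKO library. Within each of the 3 runs of sample numbers, every Ndrg3TKO library lay below every Ndrg3ctrl library in the mitochondrial sum and in the ratio to the nuclear sum. The runs were brought in after seeing the data, and the share of all tested genes with such an order is not given here. With 1 or 2 libraries a group in a run, the order alone does not set the groups apart. The Ndrg3TKO to Ndrg3ctrl ratios of the mitochondrial sums were 0.867, 0.853 and 0.898 in the first to the third run (1, 2 and 1 libraries a group), and those of the nuclear sums 0.935, 0.983 and 1.03. Gene by gene the runs were less alike: 5, 11 and 9 of the 11 tested mitochondrial genes were lower in Ndrg3TKO, with median differences of 0.045, −0.33 and −0.093. These sums are descriptions with no test, and mt-Co1 weighs most in the mitochondrial one.

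**Figure D5:**
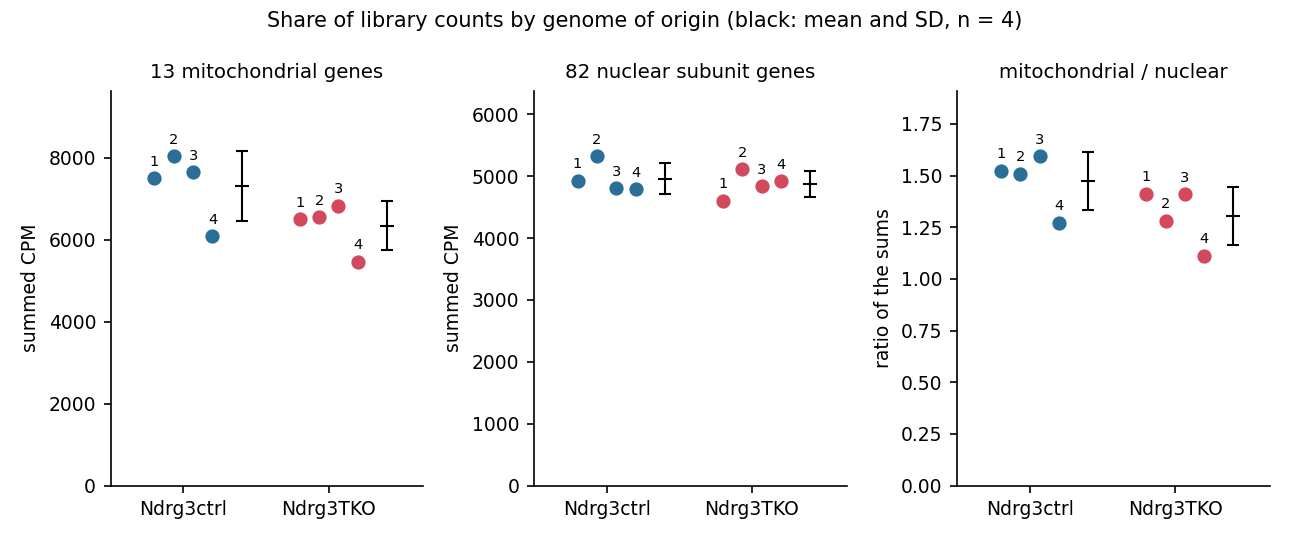
Summed CPM of the 13 mitochondrial and of the 82 nuclear subunit genes, and their ratio, in each library (points, numbered by replicate), with mean and SD of the 4 libraries per group in black. Mitochondrial sums run from 6088 to 8033 in Ndrg3ctrl and from 5466 to 6825 in Ndrg3TKO, and replicate 4 is the lowest of each group.

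Within the complexes built from both genomes, the median log2 fold changes of nuclear and mitochondrial subunits were −0.028 (36 genes) and −0.21 (6 genes) in complex I. They were −0.085 (12 genes) and −0.19 (3 genes) in complex IV. In complex III the 8 nuclear genes had a median of −0.062 and mt-Cytb −0.10, and in complex V the 16 nuclear genes had −0.021 and mt-Atp6 0.056. The summed CPM of the nuclear subunits by complex gave ratios of the Ndrg3TKO to the Ndrg3ctrl mean of 0.986, 1.00, 0.965, 0.965 and 0.986 for complexes I to V, and the groups overlapped in each. The difference between nuclear and mitochondrial genes itself was not tested.

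The rest of the pathway, outside the symbol rule, gave the same count of calls. Of 117 listed genes, 115 were in the table under these symbols and 111 were tested. The adjusted threshold was passed by 0 of the 111, against 1.15% of all tested genes. An unadjusted p under 0.05 (edgeR) was found for 4 with lower and 1 with higher values. Over all tested genes, 10.9% passed that unadjusted level in either direction. The median log2 fold change of the 111 was −0.013. In 2 of them, both lower in Ndrg3TKO, the 4 libraries of a group lay apart from the 4 of the other. Of all tested genes, 7.04% did so. The 5 genes with an unadjusted p under 0.05, chosen after their values were seen, are given with log2 fold change and standard error (edgeR). Ppargc1b, a coactivator of respiratory genes, had 0.18 ± 0.0758 (adjusted p = 0.393). Cox10, which acts in making the heme of complex IV, had −0.17 ± 0.0545 (adjusted p = 0.206). The complex IV assembly factors Coa5 and Cox16 had −0.17 ± 0.0661 (adjusted p = 0.328) and −0.20 ± 0.0915 (adjusted p = 0.457). Sdhaf2, which attaches the flavin of Sdha, had −0.15 ± 0.0658 (adjusted p = 0.418). The electron carriers and further subunits, among them Cox4i1 and Cyc1, had a median of −0.073 (4 tested). Assembly factors of complexes I, II, III, IV and V outside the rule had medians of −0.060 (9 tested), 0.091 (4), 0.0076 (6), −0.021 (20) and −0.030 (3). The 24 genes of mitochondrial DNA transcription and RNA handling, which make and process the RNA of the 13 mitochondrial genes, had a median of −0.020, and the 8 tested regulators of nuclear respiratory genes 0.0071. The tricarboxylic acid cycle (14 genes), coenzyme Q synthesis (13 genes) and ADP/ATP exchange with the porins (6 tested) had 0.0096, 0.026 and −0.023.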

How the data were processed

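RNA from sorted CD8SP TCRb+ MHC-I high thymocytes was converted to stranded total RNA libraries after depletion of ribosomal RNA. Per the labels and the methods of the study, the authors used cutadapt for trimming, STAR for alignment to GRCm38.p4 and featureCounts for counts per gene. The deposited table holds raw read counts, not normalized. The strand setting and the treatment of reads with several matches are not given in the sources used here.

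Symbols, biotypes, positions and exon lengths came from GENCODE M21 (GRCm38), which matched 47310 of the 47937 gene identifiers; 11 pseudogenes with fitting symbols were left out. Counts were fitted with edgeR 4.0.16 (filterByExpr, TMM, quasi-likelihood test, Benjamini-Hochberg adjustment over 14633 tested genes, threshold 0.05) in R 4.3.3, without covariates, and the code was tested on simulated data. Fold changes are Ndrg3TKO over Ndrg3ctrl, with the standard error from the F statistic. Levels between genes were compared per kb of exon; long annotated isoforms lower them. Libraries held 21126698 to 32668081 counts, and no 2 replicates agreed within sampling noise. Alternatives were DESeq2 1.42.0, other scalings and filters, leaving out each library, a replicate block and a covariate for Y-linked counts; the fit of the 5 libraries without Y-linked counts and that with the run of sample numbers as a term were added after seeing the data.

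Named are, in each class, the gene with the highest level per kb and that with the smallest p, all mitochondrial genes, the isoform pairs of complex IV, the c-ring genes, genes whose groups lay apart, genes past the threshold, and the 7 members with an unadjusted p under 0.05, which were added after their values were seen. The members and the gene lists were chosen with earlier results of these data known. P-values measure the spread between these replicates only.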

Additional observations from a re-analysis of the deposited data

Results flagged for a closer look

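In 80 groups of 4 libraries (each gene named above and each summed level, in each genotype), the library farthest out was compared with its nearest neighbour by Dixon's criterion, and 3 stood apart; chance alone gives about 1 in 20 groups. Atp5g1, a c-ring gene, had 1629.7 normalized counts in Ndrg3TKO replicate 1, against 1822 to 1841 in the other Ndrg3TKO libraries. mt-Cytb, cytochrome b, had 23045 normalized counts in Ndrg3TKO replicate 4, against 28107 to 29125 in the other 3. The 8 nuclear genes of complex III summed to 549.5 CPM in Ndrg3ctrl replicate 2, against 477 to 488 CPM in the other controls.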

How the results depend on the processing

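The count of 168 genes past the threshold became 306 with DESeq2, 274 with no filter on low counts, 437 with the Y-linked covariate, 92 in the 5 libraries without Y-linked counts and 90 to 158 when 1 library was left out (90 to 110 genes without any 1 of the replicates 1, 3 and 4 of either group, 158 without Ndrg3TKO and 134 without Ndrg3ctrl replicate 2). The count of 0 members became 1 (mt-Nd5, lower) with DESeq2, with no filter and with the covariate, and 0 to 1 when 1 library was left out (mt-Nd5 without Ndrg3ctrl replicate 1). With the replicate block, 800 genes and 5 members passed (Cox5b, Ndufb6, mt-Co1, mt-Nd4 and mt-Nd5, all lower). The deviations of same-numbered libraries correlated at 0.18, 0.42, −0.055 and 0.30 for replicates 1 to 4, and the one of replicate 3 misses the limit of 0.1, so the numbers were not taken as pairs. With the run of sample numbers as a term, 233 genes and 2 members passed (mt-Nd4 and mt-Nd5, both lower). With the other scalings and the stricter filter, 142 to 168 genes and 0 members passed. When 1 library was left out, the median of the nuclear subunits ran from −0.090 to 0.0022 and that of the mitochondrial genes from −0.28 to −0.093, the highest without Ndrg3ctrl replicate 2. With the Y-linked covariate these medians were −0.081 and −0.22, beside −0.0047 over all tested genes. Of 576 values for 31 named members and Ndrg3, 25 changed sign, none past the threshold. When 1 library was left out, 25 of the 31 members moved by over 1.5 times, and Cox5b, Ndufb6, Sdhd, mt-Co1, mt-Nd4 and mt-Nd5 did not. Leaving out 1 library gave −0.066 to 0.062 for Atp5a1, −0.047 to 0.026 for Atp5g2, −0.0028 to 0.078 for Cox7a2l, −0.14 to 0.0086 for Ndufa4, −0.0064 to 0.13 for Ndufb11, −0.074 to 0.25 for mt-Atp6, −0.32 to 0.036 for mt-Co3 and −0.14 to 0.20 for mt-Nd3. Libraries without Y-linked counts gave 0.0084 for Atp5a1, 0.077 for mt-Co2 and 0.41 for mt-Nd3, which also had 0.0028 with library totals alone and 0.0025 with the block. The causes were not tested. Low counts limit the mitochondrial genes that are nearly wholly shared with nuclear copies, whose standard errors are the largest among the tested mitochondrial genes.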
